A study of Arabidopsis thaliana with 27 samples.

Results

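The palisade layer of the *Arabidopsis thaliana* leaf was set against the remaining chlorophyll-containing cells in sorted protoplasts that had been digested with transcription inhibitors at low light. The libraries were chosen by their labels, and 6 of the 27 libraries of the series belong to this comparison. They comprise 3 palisade and 3 reference libraries, sorted in pairs from protoplast pools G, H and I. All plants were 17 d old, carried the *IQD22pro:GUS-mCit* transgene and had grown in constant white light at 50 µmol m-2 s-1. Actinomycin D and cordycepin were present during the digestion of the first true leaves in every pool of both populations. Palisade libraries come from protoplasts with chlorophyll and mCitrine (mCit) fluorescence, and reference libraries from protoplasts with chlorophyll but without mCit. The reference is thus a mixture of green cell types, and every difference below is palisade against that mixture. Each pool was made from many leaves of many plants, and a pool is therefore the unit of replication. A further pair of comparisons on the same reporter line is used where a difference is set against it: palisade against reference cells without inhibitors (6 libraries, pools A, B and C), and palisade against reference cells with inhibitors from plants given 300 µmol m-2 s-1 before the digestion (6 libraries, pools J, K and L).

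Nuclear genes received 15070000 to 19228469 counts per library. Expression is given as CPM, counts divided by a library size that was scaled by edgeR's TMM method, and 3 counts, the floor used here, corresponded to 0.144 to 0.221 CPM. Floors cover counting error only. Of 33323 nuclear genes, 18963 had at least 2 counts in at least 3 libraries and entered edgeR's quasi-likelihood test, in which the pool was a block. Genes whose fold exceeded 2 at a Benjamini-Hochberg false discovery rate (FDR) below 0.05 are called upregulated or downregulated in the palisade, and all FDR values below are from this edgeR test. By this rule 403 genes (2.13% of those tested) were upregulated and 1055 genes (5.56%) were downregulated, and the median log2 fold change of all tested genes was -0.03. These shares are the background for every list count below. Values are given throughout in the order of pools G, H and I, and the pools themselves have no order. Means are given ± SD over the 3 libraries of a population. Every palisade value lay above every reference value in 14.998% of all tested genes, and below every reference value in 17.6%. A lack of overlap is thus common in these libraries, and it is given below as a description only.

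The labels were checked against marker genes. *IQD22* (*AT4G23060*), the source of the reporter's promoter, had 44.3, 54.1 and 52.7 CPM in palisade libraries, against 11.9, 12.1 and 13.97 CPM in reference libraries, and its log2 fold change was 1.99 (SE 0.10, FDR 5.05e-12). The 8 mesophyll markers summed to 69014 to 85784 CPM in palisade libraries and 58850 to 63467 CPM in reference libraries, and only *CA1* among them passed both limits. Both populations thus had mesophyll transcripts as by far the most abundant of the marker lists. Bundle sheath markers summed to 22.4 to 32.6 CPM in palisade libraries, against 69.8 to 102 CPM in reference libraries, with 4 of 5 downregulated and *SCR*, the endodermis and bundle sheath regulator, at a log2 fold change of 0.026. Among these 4 were *SULTR2;2* and *MYB76*, which are also members of the sulfate and glucosinolate lists below. Phloem and companion cell markers summed to 6.52 to 11.5 CPM in palisade libraries and 25.3 to 37.4 CPM in reference libraries, with 5 of 6 downregulated. Epidermal markers lay at 3.498 to 6.25 CPM in palisade libraries and 10.6 to 17.9 CPM in reference libraries, and 4 of the 7 that could be tested were downregulated. Guard cell markers reached 0.206 to 0.883 CPM in palisade libraries and 0.433 to 0.890 CPM in reference libraries, with 5 of 9 below the filter. The part of these other cell types in the results below was not tested, and in bulk samples fewer cells of a type and less RNA per cell cannot be told apart. Among upregulated genes named below, the study's promoter reporters of *TAS3*, *XTH6*, *SQE6* and *GASA1* were active in the palisade, most of them also elsewhere. Its reporters of *ANL2*, *HAT3*, *MIOX2*, *GPX7*, *UGT84A2* and *LHCB4.3* showed no localized palisade expression. The study names missing regulatory sequence and contaminating cells among possible reasons.

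A leaf has an upper (adaxial) and a lower (abaxial) side, and the palisade lies on the upper one. The sides are set up in the primordium by mutually opposing regulators. *KANADI* and *YABBY* factors together with the auxin response factors *ARF3* and *ARF4* act on the abaxial side. Class III HD-ZIP factors and the small RNAs made from *TAS3* act on the adaxial side, and these small RNAs direct cleavage of *ARF* transcripts.

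Genes of abaxial identity were lower in palisade cells, in 9 of the 10 that could be tested, with a median log2 fold change of -4.20 (background 5.56% of all tested genes downregulated). *FILAMENTOUS FLOWER* (*FIL*, *AT2G45190*), a *YABBY* factor, had 1.62, 0.686 and 0.947 CPM in palisade libraries, against 46.8, 73.2 and 74.0 CPM in reference libraries. The populations were far apart in every pool, and the log2 fold change was -5.90 (SE 0.19, FDR 1.16e-14). *KAN1* (*AT5G16560*), the founding *KANADI* gene, gave 0, 0.206 and 0.631 CPM in palisade libraries, against 16.4, 10.1 and 15.5 CPM in reference libraries. *YAB2* and *YAB5* behaved alike, with log2 fold changes of -5.31 and -6.15, and averaged 0.158 ± 0.138 CPM in the palisade and 6.58 ± 0.914 CPM in the reference, and 0.282 ± 0.272 CPM in the palisade and 19.9 ± 1.97 CPM in the reference. Palisade and reference values did not overlap for any of these 4 genes. *YAB3*, *ARF3*, *ARF4* and *KAN3*, which fall outside the naming rule and were named after their values were seen, had log2 fold changes of -4.01, -1.67, -2.12 and -2.14. Without single pools the values moved as far as -4.69 for *YAB2* (without pool H), -7.11 for *YAB5* (without pool G) and -6.82 for *KAN1* (without pool I), and all 3 genes kept their calls. The only abaxial gene tested that was not called was *ARF2*, which was abundant in both populations (290.2 ± 20.2 CPM in the palisade and 331 ± 27.7 CPM in the reference).

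On the adaxial side, 4 of 13 tested genes were upregulated and 2 were downregulated, with a median log2 fold change of 0.079. *TAS3* (*AT3G17185*), the noncoding precursor transcript, had 26.2, 14.1 and 9.84 CPM in palisade libraries, against 6.01, 4.64 and 2.23 CPM in reference libraries (log2 fold change 1.95, SE 0.14, FDR 2.25e-09). *AGO7* (*AT1G69440*), whose protein starts the processing of *TAS3*, had 8.83, 8.64 and 9.59 CPM in palisade libraries, against 2.74, 1.97 and 2.17 CPM in reference libraries, with a log2 fold change of 1.97. *AGO10* (*AT5G43810*), which keeps class III HD-ZIP transcripts from their microRNA, averaged 25.9 ± 2.89 CPM in the palisade and 8.15 ± 1.73 CPM in the reference, and *HAT3* (*AT3G60390*), a class II HD-ZIP gene, averaged 23.5 ± 1.16 CPM in the palisade and 6.29 ± 0.607 CPM in the reference. Each of the 3 palisade values lay above every reference value for *TAS3*, *AGO7*, *AGO10* and *HAT3*. The downstream genes of the same small RNA route were not called, with *SGS3* at a log2 fold change of 0.079. None of the class III HD-ZIP genes *PHB*, *PHV*, *REV* and *CNA* was called, and their log2 fold changes lay between -0.85 and 0.72. The other member of that class, *HB-8*, which marks developing veins, was downregulated (-2.25, and -2.12 and not called without pool I), as was *AS1* (-1.72), and both were named after their values were seen.

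**Figure D1:**
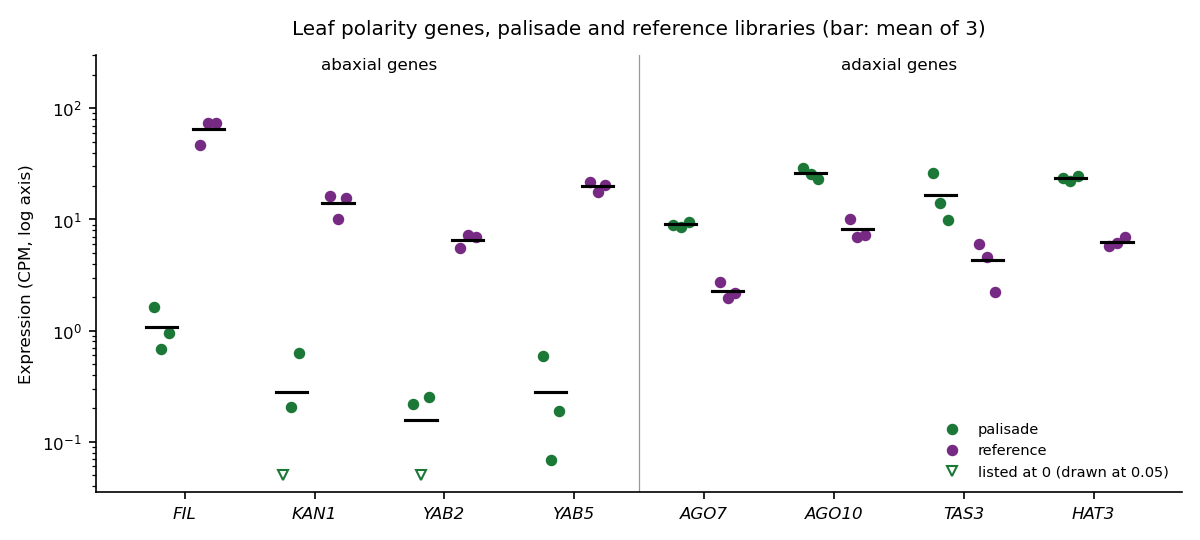
Expression of leaf polarity genes in each library, as CPM on a log axis, with palisade libraries left of reference libraries and a bar at each mean of 3 libraries. The 4 abaxial genes sit lower in all palisade libraries, and *AGO7*, *AGO10*, *TAS3* and *HAT3* sit higher.

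The *TAS3* and *ARF* results are linked by sequence, and the pairing is therefore shown. A pair of adjacent 21-base windows in the *TAS3* transcript (chromosome 3, plus strand, TAIR10.1) is shown, and they start at positions 694 and 715 of the transcript. The sites in the coding regions of *ARF3* (chromosome 2, minus strand), *ARF4* (chromosome 5, minus strand) and *ARF2* (chromosome 5, plus strand) are given 5′ to 3′, with bases that pair with the window at position 715 in capitals.
TAS3 window at 694: tttcttgaccttgtaaggcct
TAS3 window at 715: tttcttgaccttgtaagaccc
ARF3 site 1, chr2:14325941-14325961: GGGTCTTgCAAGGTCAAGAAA
ARF3 site 2, chr2:14325821-14325841: aGGTCTTgCAAGGTCAAGAAA
ARF4 site 1, chr5:24309507-24309527: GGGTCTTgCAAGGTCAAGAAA
ARF4 site 2, chr5:24309717-24309737: aGGTCTTgCAAGGTCAAGAAA
ARF2 site, chr5:24913262-24913282: GGGTCTTgCAAGGTCAAGAAt
The first site of *ARF3* and of *ARF4* had 20 paired bases, 1 G:U pair and 0 mismatches, and the second site and that of *ARF2* had 19 paired bases, 1 G:U pair and 1 mismatch. *ARF3* and *ARF4* were downregulated, and *ARF2* was not called. The number of sites printed here is not a count of all sites in a transcript, and its relation to the calls was not tested. Pairing is given for the window at position 715 only, and the small RNAs themselves were not measured in these mRNA libraries.

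Further developmental regulators differed in both directions. Of 12 *NGATHA* and *TCP* factors tested, which shape the leaf margin and blade, 2 were upregulated and 2 downregulated, and the median was -0.10. *NGA3* (*AT1G01030*) had 5.74, 4.32 and 4.29 CPM in palisade libraries, against 1.49, 2.09 and 1.39 CPM in reference libraries, whereas its paralogue *NGA2* (*AT3G61970*) had 1.03, 0.412 and 0.442 CPM in palisade libraries, against 2.40, 3.95 and 3.12 CPM in reference libraries. Neither gene overlapped between populations, and their log2 fold changes were 1.54 (SE 0.23) and -2.33 (SE 0.35). *NGA2* lay between -3.02 without pool G and -1.93 without pool H. *TCP23* (1.119) and *TCP15* (-3.37) formed a second pair of opposite sign. Among factors of trichome and root hair fate, 5 of 10 tested were upregulated and 0 downregulated, with a median of 0.89. These were the single-repeat MYB inhibitors *TRY*, *ETC2* and *TCL2*, and the homeobox genes *ANL2* (*AT4G00730*) and *HDG1*. *ANL2*, known for anthocyanin in subepidermal cells, was the most abundant of them, with 237, 244 and 229.6 CPM in palisade libraries, against 71.6, 72.4 and 82.0 CPM in reference libraries (log2 fold change 1.65, SE 0.078, FDR 3.51e-12). *TRY* averaged 3.41 ± 1.01 CPM in the palisade and 0.803 ± 0.222 CPM in the reference, above every reference library in all 3 pools.

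The Dof family of zinc finger factors was lower in palisade cells in 10 of the 20 members that could be tested, with none upregulated and a median log2 fold change of -1.50. Several Dof factors are known from veins. The largest difference was that of *AT2G28510*, with 0.147, 0 and 0.0631 CPM in palisade libraries, against 5.48, 3.83 and 4.90 CPM in reference libraries, and only 3 counts over the palisade libraries. *AT1G28310* averaged 0.569 ± 0.0201 CPM in the palisade and 8.84 ± 1.16 CPM in the reference, a log2 fold change of -3.94. In the GATA family 4 of 19 tested genes were downregulated, among them *GATA9* (-1.95), and the family median was 0.043. Phloem and bundle sheath markers fell beside these families, as given above, and their part was not tested.

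Glucosinolates are sulfur-rich defence compounds of the cabbage family. Aliphatic glucosinolates are made from methionine, whose side chain is lengthened, converted to the core structure and then modified, and indolic glucosinolates are made from tryptophan. Myrosinases release the toxic products when tissue is damaged.

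Transcripts of aliphatic glucosinolate synthesis were lower in the palisade libraries at nearly every step. Of 29 tested genes 23 were downregulated and 1 was upregulated, and the median log2 fold change was -4.28, against -0.03 for all tested genes. All 3 regulators were downregulated. *MYB28* (*AT5G61420*), the main activator of the pathway, had 2.28, 0.549 and 0.505 CPM in palisade libraries, against 73.8, 77.4 and 52.3 CPM in reference libraries (log2 fold change -5.97, SE 0.21, FDR 3e-14). Without pool G it was -6.92. *MYB29* had a log2 fold change of -4.96 (-6.03 without pool G), and *MYB76* had 0.0736, 0 and 0 CPM in palisade libraries, against 1.44, 1.33 and 0.557 CPM in reference libraries, with 1 count over the palisade libraries. Of 10 chain elongation genes 8 were downregulated. *MAM1* (*AT5G23010*), a methylthioalkylmalate synthase of this group, had 11.8, 3.64 and 6.31 CPM in palisade libraries, against 354, 288 and 117 CPM in reference libraries. *BCAT4*, *BAT5*, *IPMI2*, *IPMI1* and *IMD1*, which carry out the first transamination, the plastid import, the isomerization and the oxidation of that cycle, had log2 fold changes of -4.04, -5.09, -5.13, -4.94 and -4.80, and *BAT5* was at -5.88 without pool I. *MAM1* and these genes, *MYB29*, *CYP79F1*, *SUR1*, *UGT74B1* and *SOT17* were named after their values were seen. The large subunit *IPMI-LSU1*, shared with leucine synthesis, was not called (250.4 ± 21.9 CPM in the palisade and 258 ± 41.3 CPM in the reference).

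In the core pathway 9 of 11 genes were downregulated. *CYP83A1* (*AT4G13770*), which oxidizes the aldoxime, had 7.80, 3.22 and 3.53 CPM in palisade libraries, against 419.6, 336 and 216 CPM in reference libraries, and its log2 fold change of -6.08 (SE 0.13, FDR 7e-17) was the largest of the list. The enzyme before it, *CYP79F1*, had -4.28. The glutathione transferases *GSTF11* and *GSTU20* had log2 fold changes of -4.30 and -5.36, and *GSTU20* was among the more abundant genes of the reference population at 219, 252 and 103 CPM. Changes were smaller at the steps that indolic glucosinolates share, with *SUR1* at -2.15 and *UGT74B1* at -1.77. For side chains, *AOP2* (-5.18) was downregulated, and the flavin monooxygenases of the GS-OX group went in opposite directions. *FMOGS-OX4* (*AT1G62570*) had 2.28, 3.84 and 3.66 CPM in palisade libraries, against 1.49, 0.580 and 1.002 CPM in reference libraries and was upregulated (1.64, SE 0.32, FDR 0.000499), with 2.23 without pool G and 1.23 without pool H. Its neighbour *FMOGS-OX3* (*AT1G62560*), on the same strand of chromosome 1, had 1.47, 0.549 and 0.947 CPM in palisade libraries, against 37.3, 31.1 and 10.8 CPM in reference libraries and was downregulated (-4.68). The populations did not overlap for *FMOGS-OX3*, which was named after its values were seen.

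The 250 bases before each gene start (TAIR10.1) were searched on both strands for 3 motifs, since these genes moved together. The AC element ACCAACC, a MYB motif, was present before 4 of 23 downregulated aliphatic genes (17.4%), namely *BAT5*, *IPMI1*, *UGT74B1* and *SOT17*, against 2.79% of all tested genes. The G-box CACGTG was present before 2 of 23 (8.70%), namely *CYP83A1* and *SUR1*, against 7.44% of all tested genes. The AC element and the G-box can share a single base. Of the 6 tested aliphatic genes that were not downregulated, 1 held each of them, namely *IPMI-LSU1* with both. The sulfur response core GAGAC was present before 5 of 23 (21.7%), against 25.5% of all tested genes. The stretches before *IPMI1* and *CYP83A1* are shown as examples of the AC element and the G-box, 5′ to 3′ on the gene's strand (minus for both), with the motif in capitals. They are descriptions of sequence and say nothing of a factor bound there.
IPMI1, chr3:21798304-21798553: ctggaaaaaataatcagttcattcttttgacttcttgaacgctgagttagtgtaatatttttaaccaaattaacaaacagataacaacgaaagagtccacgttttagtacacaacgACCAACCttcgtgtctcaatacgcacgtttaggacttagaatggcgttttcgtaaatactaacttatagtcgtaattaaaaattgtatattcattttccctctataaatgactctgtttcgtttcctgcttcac
CYP83A1, chr4:7992430-7992679: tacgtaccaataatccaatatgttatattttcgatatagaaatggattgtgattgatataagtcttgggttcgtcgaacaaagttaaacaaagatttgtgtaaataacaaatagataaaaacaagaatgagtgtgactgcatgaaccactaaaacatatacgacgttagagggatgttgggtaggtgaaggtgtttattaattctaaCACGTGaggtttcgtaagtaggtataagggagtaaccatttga

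Indolic genes were affected in part. Of 21 genes of indolic glucosinolate and tryptophan synthesis, 8 were downregulated and 1 upregulated, with a median of -0.15. *MYB34* (*AT5G60890*), an activator of the indolic branch, had 0.442, 0 and 0 CPM in palisade libraries, against 18.3, 13.6 and 9.35 CPM in reference libraries, and its log2 fold change was -6.57 (SE 0.35, FDR 1.83e-11). The first enzymes *CYP79B2* and *CYP79B3* had log2 fold changes of -1.41 and -2.58, and *CYP83B1*, the next step, -2.25. Tryptophan synthesis itself was called in 2 of 8 genes. Its *TSBtype2* (*AT5G38530*), a distant form of the tryptophan synthase beta subunit, was upregulated, at 20.9 ± 3.299 CPM in the palisade and 6.05 ± 0.676 CPM in the reference (log2 fold change 1.78), and the abundant *TSB1* was not called (222 ± 15.8 CPM in the palisade and 185 ± 11.1 CPM in the reference).

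Genes of glucosinolate breakdown were split, with 4 upregulated and 4 downregulated among 12 tested. The myrosinases *TGG1* (*AT5G26000*) and *TGG2* (*AT5G25980*), known from guard cells and phloem idioblasts, were downregulated. *TGG1* had 107, 23.2 and 32.5 CPM in palisade libraries, against 159.7, 235 and 154 CPM in reference libraries (log2 fold change -2.005, SE 0.29), and *TGG2* had -1.86. Both depended on the pools, with *TGG1* at -2.78 without pool G and -1.38 without pool H, and *TGG2* at -2.56 and -1.20. In the other direction, *BGLU18* (*AT1G52400*), a beta-glucosidase of endoplasmic reticulum bodies known for abscisic acid release, had 1125, 390.2 and 598 CPM in palisade libraries, against 448, 181 and 174 CPM in reference libraries (log2 fold change 1.41, SE 0.093, FDR 5.82e-10), a call that was lost without the pool block. *MBP1*, a myrosinase-binding protein, averaged 85.3 ± 41.6 CPM in the palisade and 37.9 ± 14.7 CPM in the reference. *MBP2* had 1.55, 0.892 and 1.01 CPM in palisade libraries and 0.0481, 0.116 and 0 CPM in reference libraries, with 3 counts over the reference libraries. *ESM1*, which favours isothiocyanates among the products, was upregulated at 1.002, just past the fold limit, and fell below it without pool H (0.91) and without pool I (0.99). The root-type genes *PYK10* and *PBP1* were low in both populations and downregulated (log2 fold changes -2.88 and -2.09), and *PYK10* was at -2.05 and not called without pool I.

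Sulfate supplies the sulfur of these compounds and of cysteine and glutathione. It is taken up by SULTR transporters, activated by ATP sulfurylases (APS), phosphorylated by APS kinases (APK) for glucosinolates or reduced by APS reductases (APR) for cysteine. None of the 36 tested genes of this route was upregulated and 17 were downregulated, with a median log2 fold change of -0.66.

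Transporters were the group most often downregulated, in 7 of 8 tested. *SULTR2;2* (*AT1G77990*), a low-affinity transporter known from bundle sheath and veins, had 0.883, 0.137 and 0.568 CPM in palisade libraries, against 52.4, 46.5 and 34.3 CPM in reference libraries (log2 fold change -6.37, SE 0.20, FDR 9.4e-15). The plastid transporter *SULTR3;3* gave 3.166, 6.86 and 7.004 CPM in palisade libraries, against 53.1, 73.0 and 60.2 CPM in reference libraries, and its populations did not overlap either. *SULTR3;5* was low in both populations, with 0.0736, 0.0686 and 0 CPM in palisade libraries, against 1.35, 2.38 and 1.39 CPM in reference libraries, which is 2 counts over the palisade libraries. At the branch point, *APK2* (*AT4G39940*), which feeds sulfation, had 4.71, 3.02 and 2.33 CPM in palisade libraries, against 76.8, 52.6 and 20.4 CPM in reference libraries (log2 fold change -3.83, SE 0.15). The isoforms that carry most of the transcripts were not called. *APS1* averaged 433 ± 84.5 CPM in the palisade and 568 ± 116 CPM in the reference, and *SIR*, the single sulfite reductase, averaged 348 ± 64.7 CPM in the palisade and 525 ± 114 CPM in the reference. Named after its values were seen, *APS3* was downregulated (-2.83), as were *SDI1* (-3.06) and *LSU1* (-1.68), a pair of genes known from sulfur starvation. The core GAGAC of the sulfur response element was present in the 250 bases before 2 of the 17 downregulated genes (11.8%), against 25.5% of all tested genes. The marker sums of bundle sheath and phloem given above moved with the glucosinolate and sulfate genes, and their part in these results was not tested.

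**Figure D2:**
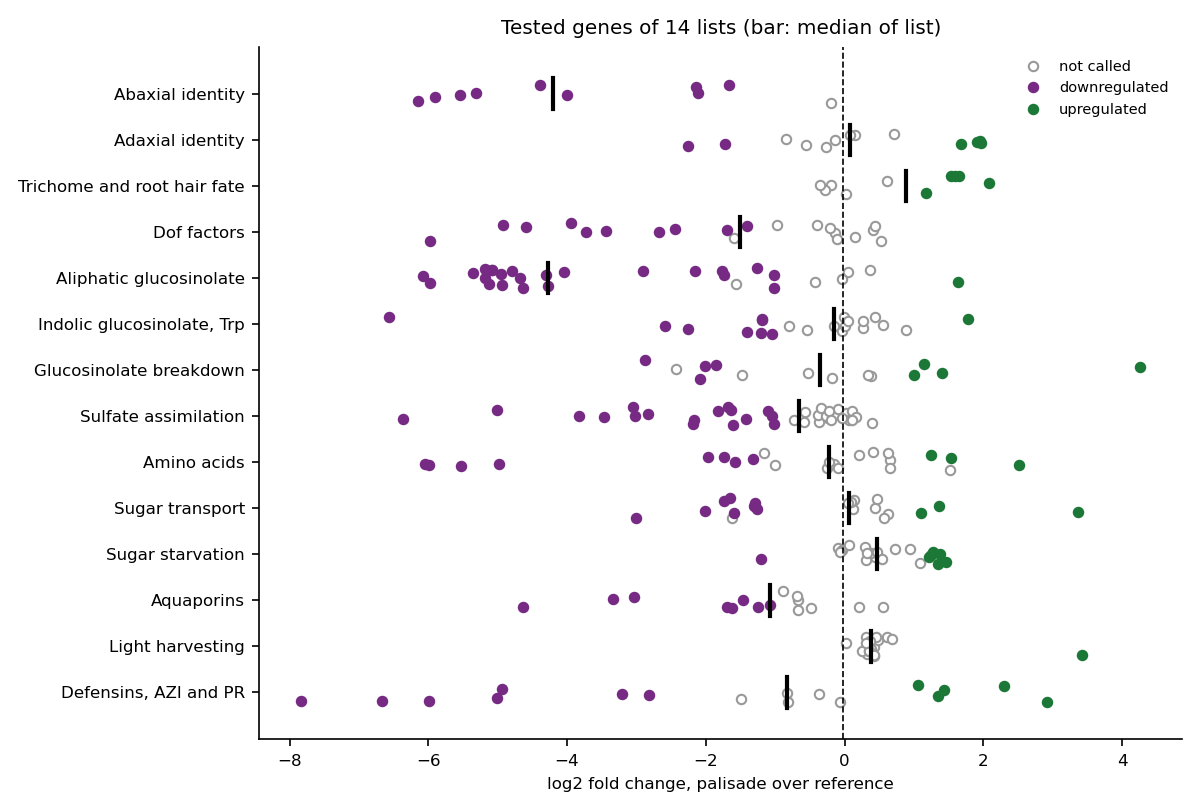
Log2 fold change (palisade over reference) of every tested gene in 14 lists, 1 point per gene, with called genes filled and uncalled genes open, and a bar at each list's median. The dashed line marks the median of all tested genes, -0.03, and aliphatic glucosinolate synthesis with its median of -4.28 lies farthest to the left. The value of *PDF1.2c*, at 0 in the palisade, depends on the prior count.

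Amino acid genes showed paralogues of opposite sign. Of 11 genes of serine and threonine metabolism 5 were downregulated and 1 upregulated, and of 12 transporters 3 were downregulated and 2 upregulated. Threonine aldolase, which splits threonine into glycine and acetaldehyde, has a pair of genes. *THA1* (*AT1G08630*) had 20.5, 13.1 and 17.4 CPM in palisade libraries, against 8.12, 8.12 and 5.29 CPM in reference libraries (log2 fold change 1.25, SE 0.15, FDR 2.39e-06), and *THA2* (*AT3G04520*) had 1.104, 0.960 and 0.757 CPM in palisade libraries, against 63.7, 71.7 and 52.5 CPM in reference libraries (log2 fold change -6.05, SE 0.14). Neither overlapped between populations. *AK3* (*AT3G02020*), an aspartate kinase at the entry of threonine and methionine synthesis, averaged 2.59 ± 1.07 CPM in the palisade and 121 ± 43.6 CPM in the reference, and *AT1G72810*, a threonine synthase gene, 0.419 ± 0.372 CPM in the palisade and 13.3 ± 4.70 CPM in the reference. The phosphoglycerate dehydrogenases of serine synthesis were split in the same way, since *PGDH3* was not called (0.62) whereas *EDA9* and *PGDH* were downregulated (-1.74 and -1.96, both named after their values were seen). Among transporters *LHT1* (*AT5G40780*), a broad uptake carrier of mesophyll, had 13.7, 24.3 and 27.6 CPM in palisade libraries, against 2.84, 5.22 and 3.34 CPM in reference libraries (log2 fold change 2.51, SE 0.15). *AAP6* (*AT5G49630*), a permease known from xylem parenchyma, had 0.368, 0 and 0.252 CPM in palisade libraries, against 12.9, 16.5 and 11.2 CPM in reference libraries. Without pool H the log2 fold change of *AAP6* was -5.27, against -5.99 with all pools. *CAT5*, a cationic amino acid carrier, was upregulated at 1.53.

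Nitrogen assimilation differed in 6 of 24 genes, with 1 upregulated. That gene was *NIA1* (*AT1G77760*), a nitrate reductase, with 666, 421 and 385 CPM in palisade libraries, against 291, 189 and 169 CPM in reference libraries (log2 fold change 1.18, SE 0.067, FDR 6.64e-11). Plastid glutamine synthetase *GS2* and glutamate synthase *GLU1* were among the most abundant genes of the list and were not called (4546 ± 859.7 CPM in the palisade and 3448 ± 497 CPM in the reference, and 3573 ± 723 CPM in the palisade and 2978 ± 414 CPM in the reference). The cytosolic forms *GLN1;3* and *GLN1;4*, known from vascular tissue, were downregulated (-1.45 and -2.20), with *GLN1;4* at -2.80 without pool G. Of the 10 transporters in the list 2 were downregulated and 8 were not called. The downregulated ones were nitrate transporters of the NPF family. *AT2G26690* had 17.6, 15.02 and 11.4 CPM in palisade libraries, against 93.4, 92.7 and 88.9 CPM in reference libraries, and *NRT1.11* had a log2 fold change of -3.19. Of 19 phosphate genes 4 were downregulated and 1 was upregulated. *AT1G63010*, which encodes a vacuolar phosphate transporter, had 0.589, 0.412 and 0.757 CPM in palisade libraries, against 30.3, 25.2 and 19.98 CPM in reference libraries (log2 fold change -5.38, SE 0.19). Its relative *AT4G22990* was downregulated by less (-1.71), and the acid phosphatase gene *AT1G25230* had 0.810, 0.274 and 0.820 CPM in palisade libraries, against 54.8, 36.5 and 46.6 CPM in reference libraries. The palisade values of all 3 lay below every reference value. The abundant acid phosphatase *PAP26* was not called (-0.087).

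Sugars made in the mesophyll reach the phloem through SWEET exporters and the sucrose carrier SUC2. Of 7 genes of sucrose transport and phloem loading 5 were downregulated, with a median of -1.62. *SWEET11* (*AT3G48740*) and *SWEET12* (*AT5G23660*), the exporters of phloem parenchyma, had 6.63, 4.46 and 4.16 CPM in palisade libraries, against 19.1, 16.999 and 14.5 CPM in reference libraries for *SWEET11* and -2.01 as the log2 fold change of *SWEET12*. *SUC2* itself, a phloem marker, had -1.29, and *SUC4*, a vacuolar carrier, -3.01. *SWEET16* (*AT3G16690*), a vacuolar fructose and glucose facilitator, went the other way, with 1.33, 1.85 and 4.54 CPM in palisade libraries, against 0.337, 0.116 and 0.223 CPM in reference libraries (log2 fold change 3.37, SE 0.44, FDR 6.92e-06), and lay between 2.74 without pool I and 4.17 without pool G. The monosaccharide carrier *STP4* and the polyol carrier *PLT6* were upregulated (1.107 and 1.36), and *PMT5*, of the same polyol group, was downregulated (-1.66). The phloem sums moved with the loading genes, and *SUC2* belongs to both lists.

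Genes known to rise when sugar runs short were higher in palisade cells in 6 of 21 cases and lower in 1, with a median of 0.46. *DIN10* (*AT5G20250*), a raffinose synthase-like gene, had 679.8, 752 and 693 CPM in palisade libraries, against 275, 275 and 269 CPM in reference libraries (log2 fold change 1.37, SE 0.068, FDR 6.39e-12). *AT3G30775*, the proline dehydrogenase ERD5, averaged 114 ± 33.8 CPM in the palisade and 47.4 ± 13.96 CPM in the reference, and *BCAT2*, which starts the breakdown of branched-chain amino acids, averaged 19.0 ± 2.47 CPM in the palisade and 6.93 ± 2.15 CPM in the reference. *BGAL4*, a beta-galactosidase, was upregulated too (1.35). *SEN1* and *DIN6*, likewise abundant, were not called (0.32 and 0.73). The single downregulated gene, *DIN11* (-1.21), was not called without the pool block or by DESeq2.

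Aquaporins, the water channels of the plasma membrane (PIP) and the tonoplast (TIP), were downregulated in 8 of 15 tested genes and upregulated in 0, with a median of -1.07. *PIP2;2* (*AT2G37170*) differed most, with 7.21, 5.21 and 8.58 CPM in palisade libraries, against 178, 182 and 164 CPM in reference libraries (log2 fold change -4.64, SE 0.12, FDR 1.14e-15). *TIP1;1* (*AT2G36830*) had 44.6, 28.0 and 26.5 CPM in palisade libraries, against 396, 356 and 245 CPM in reference libraries, and *TIP2;1* averaged 102 ± 26.2 CPM in the palisade and 310.0 ± 19.5 CPM in the reference. The populations were apart in every pool for these genes. *PIP2;1*, of the same subfamily as *PIP2;2*, was among the most abundant members and had a log2 fold change of -1.07, which was -0.94 without pool I and then not called. Since reads that map to several places were not counted, values of genes with near-identical relatives are uncertain. Channels and carriers for potassium, anions and calcium were upregulated in 4 of 18 tested genes and downregulated in 0. *KC1* (*AT4G32650*), a silent potassium channel subunit, had 4.27, 5.42 and 5.49 CPM in palisade libraries, against 1.87, 1.22 and 0.557 CPM in reference libraries (log2 fold change 2.05, SE 0.29). *KUP6*, a potassium carrier, was upregulated (1.31), and the abundant calcium exchanger *CAX1* was not called (0.42).

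Genes of the photosynthetic apparatus differed little, with single exceptions. Of 18 light-harvesting genes 17 were not called and the median was 0.38. *LHCB4.3* (*AT2G40100*), a minor antenna protein, was the exception, with 71.5, 28.1 and 23.2 CPM in palisade libraries, against 6.35, 2.73 and 2.23 CPM in reference libraries (log2 fold change 3.43, SE 0.11, FDR 1.83e-14). *LHCB1.1* averaged 6082 ± 1906 CPM in the palisade and 4363 ± 1336 CPM in the reference and *LHCB1.2* 6167 ± 2111 CPM in the palisade and 5018 ± 1824 CPM in the reference, and neither gene passed the fold limit. Carbonic anhydrases, which interconvert carbon dioxide and bicarbonate, were more divided. *CA1* (*AT3G01500*), the plastid form, reached a log2 fold change of 1.01, just past the limit, and lost its call without pool G (0.97) or pool H (0.998). *BCA3* (*AT1G23730*) had 0.0736, 0 and 0.189 CPM in palisade libraries, against 2.4999, 1.51 and 0.835 CPM in reference libraries (log2 fold change -3.99, SE 0.63), and *ACA1* (*AT3G52720*), of another family, had 2.503, 1.03 and 1.39 CPM in palisade libraries, against 46.8, 75.8 and 50.5 CPM in reference libraries. *FBA5*, an aldolase, was upregulated (1.34). The list of chlorophyll breakdown and carotenoid cleavage genes had 4 of 13 tested genes upregulated and 0 downregulated. *MES16* (*AT4G16690*), which demethylates breakdown products, had 56.8, 37.9 and 23.3 CPM in palisade libraries, against 12.1, 5.98 and 4.79 CPM in reference libraries (log2 fold change 2.38), and *CCD4* (*AT4G19170*), a carotenoid cleavage enzyme, had 504, 621 and 648 CPM in palisade libraries, against 169.8, 222 and 242 CPM in reference libraries. Clock genes were called in 1 of 13 cases and chloroplast movement genes in 1 of 13, *RVE7* (1.13, and 0.88 and not called without pool H) and *PMI15* (1.17).

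Catalases remove hydrogen peroxide from peroxisomes, and of the 3 *Arabidopsis* genes only *CAT3* was called. *CAT3* (*AT1G20620*) had 188, 233 and 286 CPM in palisade libraries, against 3680.4, 3387 and 4505 CPM in reference libraries, and was downregulated, at a log2 fold change of -4.04 (SE 0.083, FDR 5.19e-17). *CAT2* (*AT4G35090*), the leaf peroxisomal form, had 8822, 6092 and 3983 CPM in palisade libraries, against 4375, 3445 and 2492 CPM in reference libraries, and its log2 fold change of 0.84 did not pass the fold limit. The oxidase *RBOHF* (*AT1G64060*), which makes superoxide at the plasma membrane, had 0.368, 0.206 and 0.316 CPM in palisade libraries, against 17.4, 14.3 and 10.3 CPM in reference libraries, whereas *RBOHD* was not called (-0.20). Also upregulated were *GPX7* (1.73) and *PRXQ* (1.1096), plastid peroxidases, and *MIOX1* and *MIOX2* (1.29 and 1.92), which open the ring of inositol. *DHAR1*, a dehydroascorbate reductase, was downregulated (-1.16), and lost its call without pool G (-0.99). In the oxidative pentose phosphate pathway none of 9 dehydrogenases was called, but the lactonases *PGL5* (1.24) and *PGL2* (-2.82) were called in opposite directions. *PGL2* had 7.51, 5.69 and 6.25 CPM in palisade libraries, against 47.8, 49.5 and 40.7 CPM in reference libraries.

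**Figure D3:**
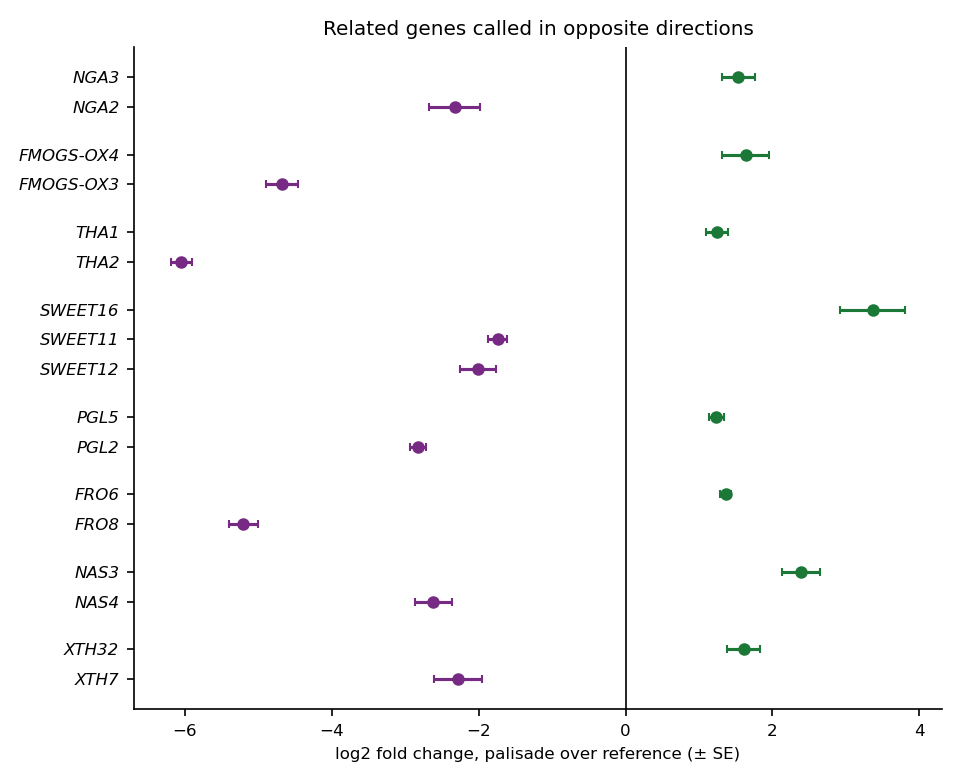
Mean log2 fold change (palisade over reference) with SE for pairs or groups of related genes that were called in opposite directions, 1 row per gene, from 3 pools. *SWEET16*, *THA1*, *NGA3*, *FRO6*, *NAS3*, *FMOGS-OX4*, *XTH32* and *PGL5* lie right of 0, and the relatives drawn beneath them lie left of 0.

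Metal genes gave further contrasts of this kind. Of 20 iron and zinc genes 2 were upregulated and 6 downregulated. Ferric reductases pass electrons to iron at membranes, and *FRO6* (*AT5G49730*) had 408, 460.4 and 484 CPM in palisade libraries, against 176, 156 and 195 CPM in reference libraries (log2 fold change 1.36, SE 0.076, FDR 4.73e-11). *FRO8* (*AT5G50160*), a mitochondrial form known from veins, had 1.99, 0.343 and 1.07 CPM in palisade libraries, against 52.4, 41.7 and 31.1 CPM in reference libraries (log2 fold change -5.21, SE 0.20), and *FRO7*, the plastid form, was not called (0.73). Nicotianamine synthases make the chelator of iron and zinc. *NAS3* (*AT1G09240*) averaged 6.95 ± 2.31 CPM in the palisade and 1.2997 ± 0.614 CPM in the reference, and *NAS4* (*AT1G56430*) averaged 0.904 ± 0.557 CPM in the palisade and 5.57 ± 2.35 CPM in the reference. *YSL3*, which moves the chelate and is known from veins, had 3.53, 2.81 and 4.16 CPM in palisade libraries, against 45.2, 55.0 and 53.0 CPM in reference libraries. The zinc carriers *ZIFL1* and *ZIFL2* were downregulated (-1.96 and -3.56), and none of the 4 ferritin genes was called.

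Among copper proteins, *CSD2* (*AT2G28190*), the plastid copper/zinc superoxide dismutase, averaged 197 ± 70.9 CPM in the palisade and 98.7 ± 45.5 CPM in the reference, and *MIR398C* (*AT5G14565*), a precursor of the microRNA known to act on its transcript, averaged 6.43 ± 0.692 CPM in the palisade and 13.3 ± 1.003 CPM in the reference. Both changes were close to the fold limit, with log2 fold changes of 1.03 and -1.05, and both calls were lost when single pools were left out (0.95 without pool G for *CSD2*, and -0.999 and -0.95 without pools H and I for *MIR398C*). The precursor is counted from polyadenylated transcripts, and the mature microRNA was not measured. Of 6 superoxide dismutase genes tested, *CSD2* was the only 1 called. No site in the *CSD2* transcript is given, and a link between both genes was not tested. The sequence of the mature microRNA is shown with the seed (bases 2 to 8) in capitals.
miR398c, chr5:4694778-4694798: tGTGTTCTcaggtcacccctg
The copper chaperone *CCH* was downregulated (-2.08), and *BCB*, a blue copper protein, was upregulated (1.31).

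Hormone genes were called in numbers that differed between hormones. Of 20 auxin genes 5 were upregulated and 5 downregulated, and jasmonate and cytokinin genes had downregulated members only. Since only 2.13% of all tested genes were upregulated (5.56% downregulated), lists of this size may lack upregulated members. A difference between hormones was not tested. Auxin is made from tryptophan by TAA1 and YUCCA enzymes, and of 6 synthesis genes 3 were upregulated and 1 was downregulated. *TAA1* (*AT1G70560*) had 8.47, 6.17 and 14.3 CPM in palisade libraries, against 0.577, 0.638 and 0.390 CPM in reference libraries (log2 fold change 4.12, SE 0.27, FDR 3.99e-10). *YUC8* (*AT4G28720*) had 0.368, 0.960 and 2.59 CPM in palisade libraries, against 0.0481, 0 and 0.111 CPM in reference libraries, with 3 counts over the reference libraries. *YUC6* (*AT5G25620*) was at 0 in all palisade libraries and at 0.144, 1.22 and 0.557 CPM in reference libraries, which makes it at least 3.12-fold lower against the floor of 3 counts per library. *PIN3* and *PIN7*, the most abundant auxin carriers, were not called (-0.76 and -0.41).

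In brassinosteroid synthesis, *ROT3* (*AT4G36380*) was upregulated (1.95, with 3.502 ± 1.15 CPM in the palisade and 0.899 ± 0.304 CPM in the reference) and its close relative *CYP90D1* (*AT3G13730*) had 0.147, 0.137 and 0.189 CPM in palisade libraries, against 10.2, 12.8 and 11.2 CPM in reference libraries (log2 fold change -6.10, SE 0.27). *CPD*, the abundant enzyme of this pathway, was not called (0.50). In ethylene synthesis, ACC oxidases carry out the last step. *AT1G12010*, one of them, had 0.810, 0.137 and 0.442 CPM in palisade libraries, against 63.0, 46.7 and 36.3 CPM in reference libraries (log2 fold change -6.70, SE 0.19, FDR 2.14e-15), and *ACO4* had 28.8, 36.3 and 34.3 CPM in palisade libraries, against 172, 221 and 308 CPM in reference libraries. Of 27 jasmonate genes 5 were downregulated and 0 upregulated. These were *JMT* (-3.99), which methylates the hormone, *AOC4* (-1.89), *VSP2* (-2.66), *LOX6* (-1.35) and *JAZ7* (-1.61), and without pool I *VSP2*, *LOX6* and *JAZ7* were not called (-2.33, -1.26 and -1.70). The GASA peptides, small proteins that respond to gibberellin, were divided, with *GASA1* (*AT1G75750*) at 426, 253 and 265 CPM in palisade libraries, against 115, 102 and 75.1 CPM in reference libraries and *GASA6* (*AT1G74670*) at 58.9, 42.8 and 59.8 CPM in palisade libraries, against 151, 131 and 189.8 CPM in reference libraries. Their log2 fold changes were 1.67 and -1.54. Cytokinin genes were downregulated in 4 of 14 cases. The response regulator *ARR6* was the one that differed most (-2.76), and it was not called without the pool block.

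Cell walls are loosened by xyloglucan endotransglucosylases (XTH) and expansins. Of 22 XTH genes 3 were upregulated and 3 downregulated. *XTH6* (*AT5G65730*) had 35.6, 45.2 and 25.1 CPM in palisade libraries, against 5.29, 5.28 and 2.67 CPM in reference libraries (log2 fold change 2.998, SE 0.12, FDR 2.27e-13). *XTH32* averaged 5.83 ± 1.13 CPM in the palisade and 1.93 ± 0.585 CPM in the reference, and *XTR6* averaged 8.28 ± 3.168 CPM in the palisade and 3.09 ± 0.795 CPM in the reference. *XTH7* (*AT4G37800*), downregulated, had 0.663, 0.412 and 0.631 CPM in palisade libraries, against 2.64, 3.25 and 2.504 CPM in reference libraries. The log2 fold changes of *XTH9* and *XTH15* were -2.08 and -2.26 with all pools, and -1.54 and -0.24, not called, without pool H. Expansins were called in 4 of 17 tested genes, with *EXPB3* (2.33) and *EXPA10* (1.54) upregulated and *EXPA8* (-1.37) downregulated. The remaining one, *EXP3* (-2.24), lost its call when any of the 3 pools was left out (-2.16, -1.92 and -2.75). Beta-galactosidases divided in the same way, with *BGAL10* (1.124) and *BGAL4* upregulated, and *BGAL16* (-3.08) and *BGAL5* (-2.81) downregulated. The SCAR/WAVE complex branches actin filaments under the cell surface and helps shape pavement cells and trichomes. *SCAR1* (*AT2G34150*) was at 0 in all palisade libraries and at 2.84, 2.49 and 2.67 CPM in reference libraries, at least 13.0-fold lower against the floor. *ABIL1*, a subunit of the same complex, had a log2 fold change of -2.82. The other 11 of 13 genes were not called, and *SCAR2* had -0.19.

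Defence proteins also divided by family. Plant defensins are small antifungal peptides, and 6 of 9 tested were downregulated, with a median of -4.94 (-3.02 with *PDF1.2c* at its floor). *PDF1.2* (*AT5G44420*), a marker of jasmonate and ethylene responses, had 0.0736, 0.137 and 0.126 CPM in palisade libraries, against 5.05, 17.1 and 14.1 CPM in reference libraries (log2 fold change -6.66, SE 0.29, FDR 1.12e-12). *PDF1.2c* was at 0 in all palisade libraries and at 1.15, 1.33 and 2.504 CPM in reference libraries. *PDF2.2*, named after its values were seen, had 2.06, 0.754 and 1.199 CPM in palisade libraries, against 71.6, 25.2 and 29.2 CPM in reference libraries. The *PDF1.2* genes are near-identical, so that the split of their reads is uncertain. In contrast, the 4 genes of the *AZI1* cluster on chromosome 4, lipid transfer-like proteins that lie side by side, were all upregulated. *AT4G12490* had 13.3, 6.996 and 2.71 CPM in palisade libraries, against 1.78, 0.406 and 0.779 CPM in reference libraries (log2 fold change 2.91, SE 0.27), *EARLI1* averaged 15.1 ± 1.94 CPM in the palisade and 5.94 ± 1.54 CPM in the reference, and *AZI1* averaged 20.5 ± 4.90 CPM in the palisade and 9.75 ± 1.67 CPM in the reference. The fourth, *AT4G12500*, was close to the floor (log2 fold change 2.301) and lost its call without pool H (1.402) or pool I (2.37).

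Cysteine-rich receptor-like kinases (CRK) are surface receptors of stress and pathogen responses, many of which lie in 1 array of 20 genes on chromosome 4. Of 35 tested family members 4 were upregulated and 3 downregulated. Within the array neighbours differed in sign. *CRK12* (*AT4G23200*) had 1.104, 1.23 and 1.704 CPM in palisade libraries, against 5.77, 8.88 and 9.91 CPM in reference libraries (log2 fold change -2.59, SE 0.20, FDR 5.63e-09), and *CRK16* (*AT4G23240*) had a log2 fold change of -1.89. *CRK18* (*AT4G23260*) had 118, 147 and 121 CPM in palisade libraries, against 51.5, 66.3 and 58.7 CPM in reference libraries (1.13, SE 0.077), and *CRK21* (*AT4G23290*) 121, 149.7 and 130.4 CPM in palisade libraries, against 56.8, 66.1 and 66.1 CPM in reference libraries (1.08). Between *CRK12* and *CRK21* lie genes that were not called, such as *CRK19* (72.1 ± 7.69 CPM in the palisade and 70.8 ± 2.81 CPM in the reference). *CRK24*, at the end of the array, was downregulated (-1.30), a call that was lost without pool G (-1.21) or pool I (-1.03). Receptor-like proteins, which lack the kinase domain, were downregulated in 10 of 47 cases and upregulated in 1. *RLP37* (*AT3G23110*) averaged 1.09 ± 0.494 CPM in the palisade and 10.3 ± 2.45 CPM in the reference, and the upregulated *RLP6* had 0.957, 0.823 and 0.757 CPM in palisade libraries, against 0.0961, 0.174 and 0.223 CPM in reference libraries.

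**Figure D4:**
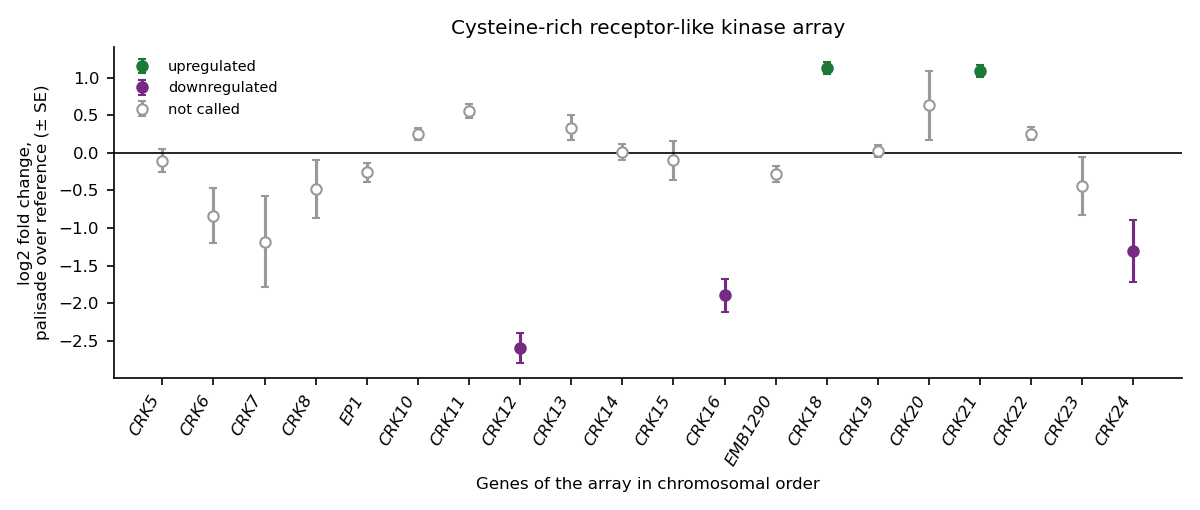
Log2 fold change (palisade over reference) with SE for the 20 consecutive genes of the cysteine-rich receptor-like kinase array on chromosome 4, drawn in gene order. *CRK18* and *CRK21* are upregulated, *CRK12*, *CRK16* and *CRK24* are downregulated, and the other 15 genes are not called.

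Large enzyme families differed in how many members were called, and their counts stand beside the 5.56% of all tested genes downregulated and 2.13% upregulated. The glutathione transferases of the tau and phi classes, which join glutathione to toxic or signalling compounds, were downregulated in 8 of 33 tested genes and upregulated in 0. *GSTU27* (*AT3G43800*) had 1.55, 0.754 and 1.51 CPM in palisade libraries, against 56.8, 52.5 and 39.0 CPM in reference libraries and *GSTF2* (*AT4G02520*) 64.2, 135 and 128 CPM in palisade libraries, against 179, 496 and 495 CPM in reference libraries, with log2 fold changes of -5.25 and -1.78. The ABCC transporters, which carry such conjugates into the vacuole, were downregulated in 5 of 15 genes. *ABCC10* (*AT3G59140*) had 0.663, 0 and 0.316 CPM in palisade libraries, against 25.3, 26.9 and 20.6 CPM in reference libraries (log2 fold change -6.21, SE 0.27, FDR 9.81e-13), which was -7.10 without pool G and -5.57 without pool H. *ABCC13* had a log2 fold change of -4.80, and *ABCC9* had only 3 counts over the palisade libraries, with 0.147, 0 and 0.0631 CPM in palisade libraries, against 6.87, 11.95 and 5.73 CPM in reference libraries. Of 136 cytochromes P450 20 were downregulated and 4 upregulated, and of 101 UDP-glycosyltransferases 9 were downregulated and 3 upregulated (8.91% and 2.97%, close to the shares of all tested genes). *UGT84A2* (*AT3G21560*), which makes sinapoylglucose, was an upregulated one, with 7.14, 4.32 and 5.43 CPM in palisade libraries, against 0.337, 0.348 and 0.278 CPM in reference libraries (log2 fold change 4.11, SE 0.29). Class III peroxidases were called in 8 of 23 genes, 5 of them upregulated, with *AT5G39580* at 1.51 and *AT1G71695* at -4.997. Aspartyl proteases were upregulated in 7 of 46 genes and downregulated in 4, among them *AT1G66180* (20.1, 16.3 and 26.4 CPM in palisade libraries, against 5.82, 3.07 and 5.29 CPM in reference libraries, log2 fold change 2.14) and *AT3G54400* (-2.43). Methylesterases were upregulated in 3 of 14 genes and downregulated in 2, with *MES10* (*AT3G50440*), a methyl jasmonate esterase, at 15.02, 10.2 and 9.59 CPM in palisade libraries, against 63.5, 50.5 and 47.6 CPM in reference libraries. In squalene epoxidation *SQE6* (1.66) and its neighbour *SQE5* (1.02) were both upregulated, and the call of *SQE5* was lost without pool H (0.97). The reporter and lignin genes that the study followed, such as *FAH1* (1.01 with all pools, and 0.90 and 0.9996 without pools G and H), are not taken further here.

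Whether these differences depended on the inhibitors or on the light was tested as the difference between palisade contrasts, over 12 libraries each. Such a difference reached an FDR below 0.05 in 973 of 20504 genes (4.75%) for inhibitors and in 1112 of 20057 genes (5.54%) for light. Since the other contrasts come from other pools, a difference of this kind cannot be told apart from a difference between sets of pools. Without the pool block the numbers were 46 and 9. Of the genes named here 30 differed for inhibitors and 41 for light, and only *BCB* (inhibitors) and *ABCC10* (light) kept an FDR below 0.05 without the block. Of the polarity genes named above only *AS1* and *AGO10* differed, both for light, and *FIL* had log2 fold changes of -4.87 without inhibitors and -6.40 after high light. *MYB28* had -5.34 and -5.14, and *SULTR2;2* -5.70 and -6.18. None of these 3 genes differed between conditions at an FDR below 0.05, which does not show that the contrasts are equal. Sugar exporters, in contrast, did differ. *SWEET11* had a log2 fold change of -3.20 without inhibitors, a difference of 1.57 (FDR 0.000375), and *SWEET12* had -3.73, a difference of 1.83 (FDR 0.00645). The indolic enzyme *CYP79B3* was lower still in palisade cells in both other conditions, at -4.20 without inhibitors and -4.63 after high light (differences 1.73 and 2.06, FDR 1.77e-05 and 8.77e-07). *AZI1*, *EARLI1* and *AT4G12490* were farthest apart between populations in the libraries described here, and *AT4G12490* had 0.79 without inhibitors and 0.95 after high light. *XTR6* was upregulated here (1.41) but had -0.50 without inhibitors (difference 2.03, FDR 4.11e-07). After high light the contrast of *ABCC10* was -3.40 (difference -2.79, FDR 1.1e-06), that of *LHT1* was 1.16 (difference 1.37, FDR 1.67e-06) and that of *GASA6* was -0.28 (difference -1.25, FDR 6.55e-05). *IQD22* itself had 1.07 without inhibitors and 1.43 after high light, below the 1.99 given above (differences 1.02 and 0.58, FDR 4.81e-06 and 0.0076), so that the reporter gene moved with these comparisons, and its part in them was not tested.

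**Figure D5:**
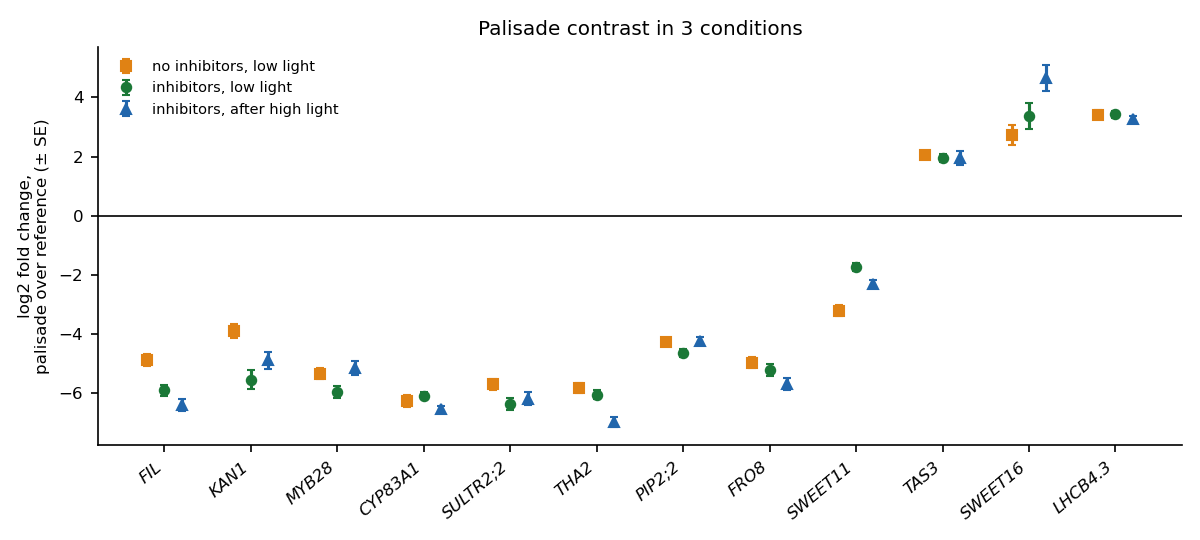
Log2 fold change (palisade over reference) with SE for 12 genes of the text in 3 conditions, with 3 pools each: without inhibitors at low light, with inhibitors at low light, and with inhibitors after high light. The 9 genes with negative values at low light with inhibitors stay below 0 in the other conditions, and the 3 with positive values stay above 0. These 12 genes were picked by hand and do not stand for all genes of the text.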

How the data were processed

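Sorted protoplasts of 3 pools were sequenced as paired palisade and reference libraries. The deposited values are whole-number read counts per gene, which the authors made with CASAVA 1.8.2, TopHat2 2.0.9 and HTSeq 0.6.1 on TAIR10. Reads that mapped to several places (7.34 to 9.26%) or to no gene (0.656 to 0.839%) were left out, as were genes of the organelles, so that 33323 of 33602 genes remained. Values of near-identical and of overlapping genes are therefore uncertain. CPM, TMM scaling and tests were computed in R 4.3.3 with edgeR 4.0.16 on genes that reached 2 counts in 3 or more libraries, and DESeq2 1.42.0 was an alternative. Python 3.11.15, pandas 2.3.3, numpy 2.4.6 and matplotlib 3.10.9 were used for summaries and figures. The SE was approximated from the log2 fold change and the root of its F value, and the prior count was 0.5 for log2 CPM.

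The pool was a block, as in the study's own model, because each pool was split into both populations. Deviations from the population means correlated at 0.230, 0.0937 and 0.170 within pools G, H and I, and at -0.121, -0.0425 and -0.0823 with other pools. Deviations from a mean of 3 libraries sum to 0, which pushes the values with other pools to the opposite sign. Those values therefore add no information of their own. P-values come from the quasi-likelihood test, which sets the mean difference between palisade and reference cells against its variation from pool to pool. That variation is estimated in part from all genes together, and the p-values do not measure it. Scripts were tested on simulated data. Gene lists were set by hand or taken from annotated family names, with earlier results of these data known, and received no test of their own. In each list every called gene was named if there were 8 or fewer, otherwise the 4 largest in each direction, with the 2 most abundant uncalled genes. Some genes that the rule names are not reported here. Other exceptions are marked in the report, and *PHB*, *PHV*, *REV*, *CNA*, *LHCB1.1*, *LHCB1.2*, *AZI1*, *RBOHD* and *IQD22* were also named after their values were seen. Names and sequences come from the RefSeq annotation of TAIR10.1. Alternatives were the fit without the block, DESeq2, other scaling, filters and tests, and leaving out each pool. Other libraries of the series are not analysed here.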

Additional observations from a re-analysis of the deposited data

Results flagged for a closer look

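The palisade contrast of some genes differed between conditions, by edgeR's quasi-likelihood test of the difference itself over 12 libraries with the pool as a block. Each value below is the log2 fold change (palisade over reference) with inhibitors at low light minus that in the other condition. The conditions come from different pools, so that inhibitors or light and the set of pools cannot be told apart, and the causes were not tested. Of 217 genes named in the report, 30 differed from the contrast without inhibitors at an FDR below 0.05 and 41 from that at high light. The contrast had the opposite sign in the other condition for 2 of the 30 and for 3 of the 41. Without the pool block 1 of the 30 and 1 of the 41 kept such an FDR, and 17 to 23 of the 30 and 20 to 36 of the 41 did when single pools were left out.

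Against palisade and reference cells sorted without inhibitors, both directions occurred. Genes downregulated in the palisade whose contrast was more negative with inhibitors at low light had differences of -2.11 for *BGAL16*, -1.36 for *ACO4*, -1.30 for *CRK12*, -1.21 for *TIP1;1*, -1.19 for *CYP83B1*, -1.17 for *AT3G54400*, -0.97 for *SDI1* and -0.86 for *APK2*. Next in this set were differences of -0.84 for *ZIFL1*, -0.74 for *APS3*, -0.67 for *PMT5* and -0.59 for *MES10*. Downregulated genes whose contrast was less negative had differences of 1.19 for *CYP79F1*, 1.33 for *TGG1*, 1.57 for *SWEET11*, 1.73 for *CYP79B3* and 1.83 for *SWEET12*. Upregulated genes whose contrast was more positive had differences of 0.46 for *SQE6*, 0.58 for *AZI1*, 0.64 for *HDG1*, 0.66 for *AT3G30775*, 0.82 for *EARLI1*, 1.02 for *IQD22*, 1.07 for *NGA3* and 1.16 for *AT1G66180*. Next in this set were differences of 1.296 for *KUP6*, 1.53 for *BCB*, 1.68 for *UGT84A2*, 2.03 for *XTR6* and 2.25 for *AT4G12490*.

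Against cells from plants given high light, differences were as follows. Downregulated genes of the palisade with a more negative contrast at low light had differences of -2.79 for *ABCC10*, -1.27 for *SOT17*, -1.25 for *GASA6*, -1.21 for *BGAL16*, -0.88 for *YSL3*, -0.88 for *MIR398C*, -0.87 for *ZIFL1* and -0.82 for *MES10*. Next in this set were differences of -0.80 for *AS1*, -0.74 for *AT4G22990*, -0.60 for *TIP2;1*, -0.50 for *ACO4* and -0.39 for *GSTF2*. Downregulated genes with a less negative contrast at low light gave differences of 1.02 for *BCAT4*, 1.25 for *CYP79B2*, 2.06 for *CYP79B3* and 3.18 for *NRT1.11*. A more positive contrast at low light was found for upregulated genes, with differences of 0.32 for *CA1*, 0.33 for *DIN10*, 0.51 for *AGO10*, 0.52 for *BCB*, 0.55 for *STP4*, 0.58 for *IQD22*, 0.58 for *MES16* and 0.64 for *TSBtype2*. Next in this set were differences of 0.68 for *PLT6*, 0.72 for *AT3G30775*, 0.75 for *AT5G39580*, 1.06 for *AZI1*, 1.28 for *EARLI1*, 1.37 for *LHT1* and 1.99 for *AT4G12490*. An upregulated gene had a less positive contrast, with a difference of -0.63 for *HDG1*. Among uncalled genes the test gave differences of -0.56 for *SEN1*, -0.55 for *DIN6*, 0.36 for *FRO7*, 0.39 for *APS1*, 0.41 for *LHCB1.1*, 0.45 for *TSB1*, 0.53 for *LHCB1.2* and 0.70 for *CAX1*.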

How the results depend on the processing

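Of 217 genes named in the report 189 were called, and 167 of these kept their call under every alternative that gave a value. With each pool left out in turn, 165 kept their call wherever a value was given. The called genes *SCAR1*, *MYB76*, *SULTR3;5*, *YUC6* and *PDF1.2c* had no value with any pool left out and are not among the 165. They are among the 167, and their dependence on single pools was not tested. No called gene changed sign. The 403 upregulated and 1055 downregulated genes became 340 to 374 and 798 to 832 with single pools left out, 326 and 899 without the replicate block of pools, and 313 and 788 with DESeq2. Numbers moved by more than 1.5 times with at least 10 counts in every library (246 and 453, from fewer genes tested), with at least 2 CPM in at least 3 libraries (237 and 591, also fewer genes) and with a TREAT test against a fold of 2 (125 and 514). For the difference between inhibitor conditions, 973 genes became 46 without the replicate block and 375 to 884 with replicates left out. For light, 1112 genes became 9 without the block, 589 with DESeq2 and 496, 639 and 1213 with single replicates left out. Beyond the construction of the filters and of TREAT, the cause was not tested. Upper-quartile and RLE scaling, no filter and edgeR's likelihood ratio test stayed within 1.5 times, and the median of all genes lay between -0.04 and -0.01 under all of them. With single pools left out the sign turned for 3 uncalled genes, *IPMI-LSU1* (-0.077 to 0.022), *CRK19* (-0.028 to 0.072) and *REV* (-0.45 to 0.053). Depth limits the genes near the floor of 3 counts, and with 3 pools a difference that missed the limits may still exist.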
